A study of Drosophila melanogaster with 9 samples.

Results

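SWI/SNF and Polycomb group genes encode chromatin regulators with opposed roles. Of the 17874 genes in the count table, 10 were chosen by symbol for this account: brm, mor, osa and Snr1 of the SWI/SNF complex, E(z), esc and Su(z)12 of Polycomb repressive complex PRC2, and Pc, ph-p and Psc of PRC1. They were measured in hemocytes, the blood cells that circulate in the body cavity of Drosophila melanogaster larvae. Total RNA was sequenced from third-instar larvae in 9 libraries, 3 biological replicates for each of 3 genotypes, with 300 larvae bled into buffered saline per library. The control was W1118, a white-eyed laboratory strain, for which the labels name no transgene. The p210 group carried UAS-BCR-ABLP210, a transgene for the human fusion kinase of chronic myeloid leukaemia, and the T315I group carried UAS-BCR-ABLT315I, the same kinase with the substitution that blocks binding of the drug imatinib. All groups were kept at 18 °C for maintenance and at 25 °C for experiments.

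A UAS transgene is silent unless a GAL4 driver is present, and the driver, the cells it acts in and the genetic background of the transgenic larvae are not given in the labels. Effects of the transgene and of the strain therefore cannot be told apart. Animals were pooled, so that values are means over many larvae. In bulk RNA, fewer cells of a type and less RNA per cell cannot be told apart either.

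The SWI/SNF complex uses the energy of ATP to slide or evict nucleosomes and so opens chromatin. PRC2 methylates a lysine in the tail of a histone, and PRC1 binds the methylated tail, modifies another histone and compacts the chromatin. Both sets of genes were first found in flies through their effects on the homeotic genes, brm, mor and osa as activators of the Trithorax group and the Polycomb genes as repressors. Genes for the human counterparts of both complexes are recurrently mutated in cancers, leukaemias among them.

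Depth and the levels of cell type markers differed between the control and the transgene groups. Control libraries held 5.399 to 9.844 M counts, where M stands for mega. Those of p210 held 14.48 to 18.16 M, and those of T315I 13.86 to 15.72 M. Expressed as CPM, the counts per M counts of a library, the floor of 3 counts was 0.170 in the deepest library and 0.553 in the shallowest, for counting error only. All 12 plasmatocyte markers, which define the main hemocyte type, were detected, and their summed level ran from 27180 to 31544 CPM in the control, 32018 to 49595 in p210 and 36719 to 47190 in T315I. Of the mean sum, 4378 CPM came from Ppn, a matrix protein gene, in control libraries, against 14222 CPM for p210 and 12775 CPM for T315I. In each comparison 4 of the 12 markers were higher, 1 (NimC2) was lower and 7 were not called, and the median log2 value was 0.18 in both. Of 10 lamellocyte markers 9 were detected, with 3519 to 8720 CPM in the control, 15980 to 21571 in p210 and 17143 to 20218 in T315I. Control replicate 3 stood apart in this list, at 8720 CPM against 3719 and 3519 in the other control libraries. It was also the highest of the control for Snr1, E(z), Su(z)12, Pc and Psc, but not for brm, mor, osa or ph-p. Of the 9 lamellocyte markers tested, 7 were higher in each comparison and 1, Fhos, was lower. Over all genes tested, 26.9% were called higher in p210 and 20.5% in T315I. Markers of fat body and muscle were higher in the control. The 10 fat body markers summed to between 39607 and 98804 CPM in its libraries, against 4853 to 6495 in p210 and 8466 to 12617 in T315I. The 13 muscle markers, 12 of them detected, gave 1386 to 3119, 341 to 385 and 390 to 454 CPM in the same order. Markers at 0 in all libraries (atilla of lamellocytes, PPO1 of crystal cells, Mf of muscle) lie within the spans of other genes and are not read as absent. The part of these shifts in the results that follow was not tested. Abl, the fly gene of the same kinase family, read 114, 109 and 299 CPM in the control, 557, 779 and 994 in p210 and 623, 683 and 713 in T315I, and the human transgene was not analysed here.

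The members were higher in both transgene groups or did not pass the test, and none was lower. Against the control, 6 of the 9 members that could be tested rose in p210 (brm, mor, osa, Snr1, Su(z)12 and Psc), where 26.9% of all 9978 genes tested were called higher, 30.3% lower and 57.1% in either direction. In T315I, 5 of 9 rose (brm, mor, osa, ph-p and Psc), where 20.5% of genes were called higher, 28.7% lower and 49.3% in either direction. Psc had the highest fold change of the members in both, 2.16-fold in p210 and 2.04-fold in T315I. The median log2 fold change of the members was 0.45 in p210, against 0.05 over all genes, and 0.40 in T315I, against -0.02. Both comparisons use the same 3 control libraries, so their likeness is no independent evidence.

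These calls depend on how libraries are scaled. TMM scaling, used throughout unless another is named, assumes that most genes do not change. When libraries were scaled instead to the summed plasmatocyte markers, no member was called in either comparison, and the median of the members was -0.049 in p210 and -0.056 in T315I. The median of all genes moved with it, to -0.43 and -0.48. A change of scale shifts all genes by nearly the same amount. The margin of the members over the median gene could therefore hardly change, and it is no evidence on the calls. The plasmatocyte scale holds Ppn, itself called 3.25-fold and 2.92-fold higher under TMM. With Ppn left out of it, an alternative added after the data were seen, osa and Psc were called in p210 and Psc in T315I, the medians of the members were 0.29 and 0.25, and those of all genes -0.097 and -0.17. Under upper-quartile scaling, with an all-gene median of -0.10 and -0.11, 2 members were called in each comparison. TMM called 2681 genes higher and 3019 lower in p210, upper-quartile scaling 1865 and 3315, plasmatocyte scaling 524 and 3532, and the same without Ppn 1133 and 2959. In T315I the splits were 2048 and 2867, 1621 and 3073, 414 and 3478, and 844 and 2811.

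**Figure D1:**
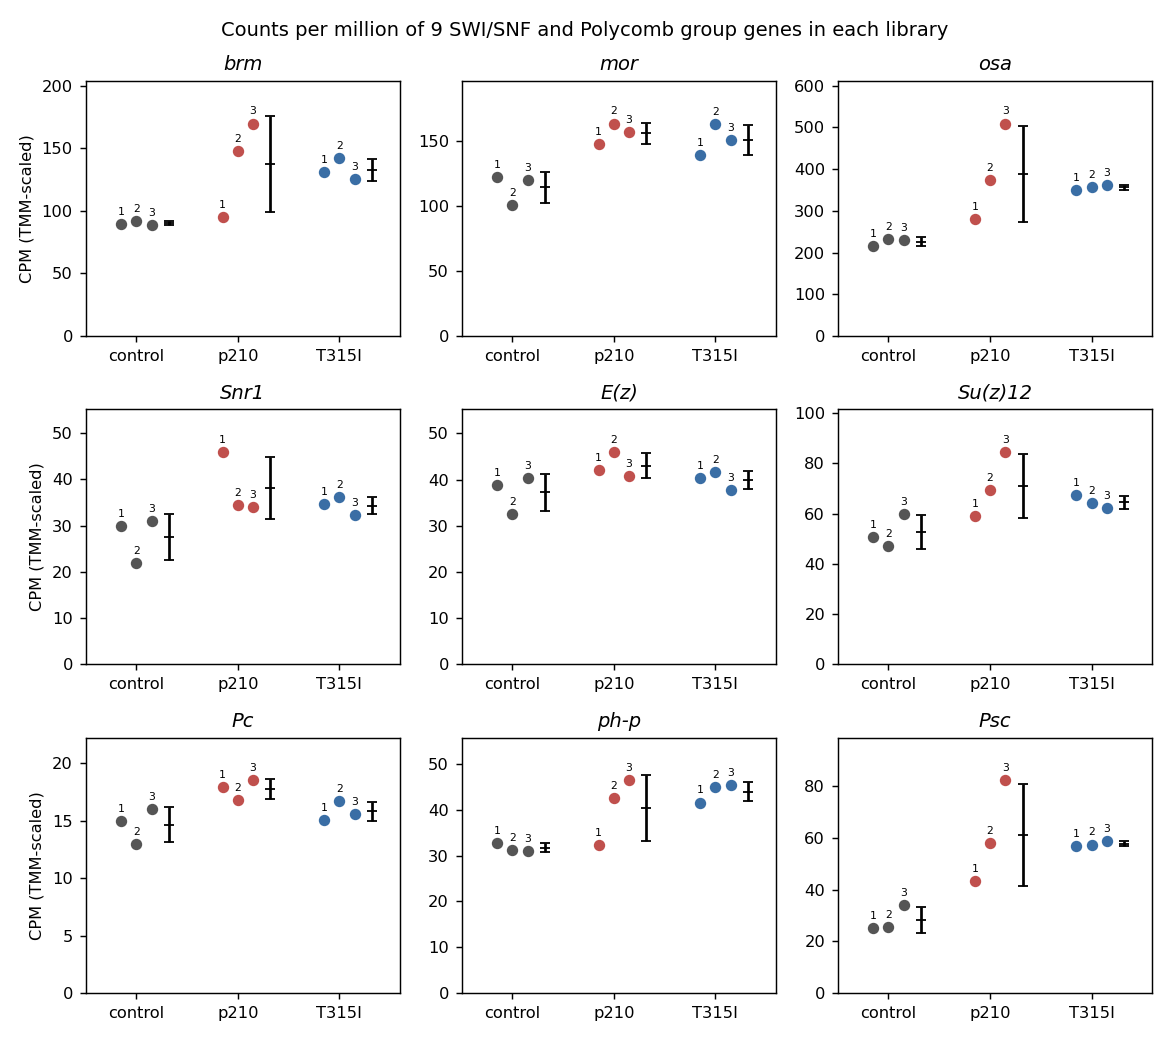
Each panel gives 1 gene, with the TMM-scaled CPM of each library (points, numbered by replicate) and the mean with its SD over 3 libraries (bars) for control, p210 and T315I; axes start at 0. The libraries of p210 are spread most for brm, osa and Psc, while the T315I libraries lie close together, as for Psc at 57.0 to 58.9 CPM.

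Among the SWI/SNF genes, brm encodes the ATPase that drives remodelling and lies on chromosome arm 3L at 15970082 to 15982869 (build dm6). Its level was 89.6, 92.1 and 89.1 CPM in control replicates 1 to 3, 94.7, 148 and 169.9 CPM in p210 and 131, 142 and 125 CPM in T315I. No transgene library overlapped the control, although p210 replicate 1 came within a few CPM of it. The log2 fold change was 0.60 ± 0.19 (SE) in p210 (edgeR adjusted p = 0.0208) and 0.55 ± 0.19 in T315I (edgeR adjusted p = 0.0344). In p210 the call for brm was lost without control replicate 3, p210 replicate 2 or p210 replicate 3, and in T315I it was lost under 5 of 9 such omissions, with adjusted p from edgeR of up to 0.0976.

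The gene mor encodes the scaffold subunit Moira, which holds the core of the complex together (3R, 15968134 to 15972913). It read 122, 101 and 121 CPM in the control, 148, 164 and 158 CPM in p210 and 139.9, 163 and 151 CPM in T315I. Every transgene library lay above every control library. Its log2 fold change was 0.45 ± 0.12 in p210 and 0.40 ± 0.12 in T315I (edgeR adjusted p = 0.00933 and 0.0193), and it was -0.049 and -0.056 under plasmatocyte scaling (0.29 and 0.25 with Ppn left out of the scale, neither called). The T315I call was lost without control replicate 2, T315I replicate 2 or T315I replicate 3.

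The gene osa encodes the large DNA-binding subunit that marks the BAP form of the complex (3R, 17687818 to 17718350). Its level was 215, 233 and 231 CPM in the control, 280.5, 375 and 509 CPM in p210 and 349.9, 357 and 362 CPM in T315I. The groups did not overlap with the control, and the highest p210 library was well above the lowest. The log2 fold change was 0.78 ± 0.19 in p210 (edgeR adjusted p = 0.00726) and 0.65 ± 0.19 in T315I (edgeR adjusted p = 0.0196). The T315I call was lost without T315I replicate 2 or 3, at adjusted p of 0.0548 and 0.0572 from edgeR.

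Snr1 encodes the core subunit related to yeast SNF5 and human SMARCB1 (3R, 5470926 to 5472754). It read 29.9, 21.9 and 31.0 CPM in the control, 45.9, 34.4 and 34.0 CPM in p210 and 34.6, 36.1 and 32.3 CPM in T315I. The transgene libraries again lay above the control, with p210 replicate 1 the highest, the reverse of brm and osa, for which that library was the lowest of p210. Snr1 rose in p210 by a log2 fold change of 0.46 ± 0.17 (edgeR adjusted p = 0.0421), a call lost under 5 of 9 omissions of a single library. In T315I the value was 0.31 ± 0.17 (edgeR adjusted p = 0.158), and -0.13 under plasmatocyte scaling, or 0.17 with Ppn left out.

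In PRC2, E(z) encodes the histone methyltransferase itself (3L, 10634575 to 10638130). Its level was 38.7, 32.6 and 40.2 CPM in the control, 42.2, 46.0 and 40.8 CPM in p210 and 40.3, 41.7 and 37.8 CPM in T315I. The p210 libraries lay just above the control and the T315I libraries overlapped it. With log2 values of 0.21 ± 0.12 and 0.10 ± 0.12 (edgeR adjusted p = 0.160 and 0.503), E(z) passed the test in neither comparison, and plasmatocyte scaling turned both negative, to -0.28 and -0.35, or to 0.055 and -0.040 with Ppn left out.

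Su(z)12 encodes a zinc finger subunit that the methyltransferase needs for its activity (3L, 19918242 to 19923462). It read 50.7, 47.0 and 60.0 CPM in the control, 58.9, 69.5 and 84.5 CPM in p210 and 67.4, 64.1 and 62.3 CPM in T315I. Control replicate 3 overlapped p210 replicate 1, while all T315I libraries were above the control. Su(z)12 rose in p210 (log2 fold change 0.43 ± 0.15, edgeR adjusted p = 0.0339), although the call was lost without control replicate 2, p210 replicate 2 or p210 replicate 3. In T315I it was 0.30 ± 0.15 (edgeR adjusted p = 0.131), and plasmatocyte scaling gave -0.090 and -0.15, or 0.25 and 0.15 with Ppn left out, neither called.

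The third PRC2 gene, esc, encodes the subunit that binds the methylated histone tail (2L, 11827204 to 11829405). It had 0 counts in all 9 libraries and was not tested. Its span lies wholly inside Pde1c on the same strand, although 100% of its exon bases are outside other exons. Among protein-coding genes placed in this way, 1203 of 1203 were at 0 in all libraries, against 305 of 6842 genes with a free span. The 0 is therefore not read as absence of esc RNA. Its paralog escl, which can take its place in the complex, was measurable, at 8.85, 6.73 and 9.28 CPM in the control, 12.04, 10.13 and 12.73 CPM in p210 and 11.79, 10.97 and 11.35 CPM in T315I. All transgene libraries lay above the control for escl, yet its log2 values of 0.49 and 0.46 did not pass the test (edgeR adjusted p = 0.0669 and 0.0929).

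In PRC1, Pc encodes the chromodomain protein that reads the methyl mark set by PRC2 (3L, 21306138 to 21318020). It read 14.9, 13.0 and 15.997 CPM in the control, 18.0, 16.8 and 18.5 CPM in p210 and 15.1, 16.7 and 15.6 CPM in T315I. The p210 libraries lay above the control and above T315I, whereas T315I overlapped the control. Neither log2 value passed the test, 0.28 ± 0.15 in p210 and 0.11 ± 0.15 in T315I (edgeR adjusted p = 0.146 and 0.576), and both were negative under plasmatocyte scaling (-0.21 and -0.35, or 0.12 and -0.038 with Ppn left out). Only 22.9% of the Pc span is free of other annotated features, which here are the gene CG7632 and an insertion of the mobile element roo. Of its exon bases, 97.6% lie outside the spans of other genes, a share that leaves mobile elements out.

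The gene ph-p encodes Polyhomeotic, whose SAM domain joins PRC1 complexes to one another (X, 2126210 to 2138371). Its level was 32.8, 31.3 and 31.0 CPM in the control, 32.3, 42.5 and 46.4 CPM in p210 and 41.6, 44.9 and 45.4 CPM in T315I. The T315I libraries were all above the control, but p210 replicate 1 lay inside the control range. Accordingly ph-p rose in T315I (log2 fold change 0.47 ± 0.14, edgeR adjusted p = 0.0224) and missed the threshold in p210 (0.35 ± 0.14, edgeR adjusted p = 0.0603). Without p210 replicate 1 the p210 value was 0.51 (edgeR adjusted p = 0.00954), while the T315I call was lost under 4 of 9 omissions of a library. Plasmatocyte scaling gave -0.19 in p210 and close to 0 in T315I, or 0.16 and 0.32 with Ppn left out, neither called.

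Psc encodes the RING finger protein of PRC1 that compacts chromatin and activates the ubiquitin ligase partner Sce. It read 25.1, 25.7 and 34.0 CPM in the control, 43.2, 58.1 and 82.3 CPM in p210 and 57.0, 57.5 and 58.9 CPM in T315I. Every transgene library lay above the highest control library. The log2 fold change was 1.11 ± 0.22 in p210 (edgeR adjusted p = 0.00296) and 1.03 ± 0.22 in T315I (edgeR adjusted p = 0.00697). Leaving out each library in turn gave 0.85 to 1.33 and 0.96 to 1.19, all called. Under plasmatocyte scaling it remained positive, at 0.56 and 0.58, but was no longer called (edgeR adjusted p = 0.0743 and 0.0690). With Ppn left out of that scale Psc was called in both, at 0.90 and 0.88.

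Counted over the members, 7 of 9 had p210 libraries that did not overlap the control (61.6% of all genes tested), and 7 of 9 had such T315I libraries (58.1% of all genes). In p210, replicate 1 held the lowest and replicate 3 the highest value for brm, osa, Su(z)12, ph-p and Psc. The summed plasmatocyte markers were likewise lowest in p210 replicate 1 (32018 CPM) and highest in replicate 3 (49595 CPM), and their part in this spread was not tested. With libraries left out singly, 4 to 6 members were called in p210. In T315I it was 2 without control replicate 2, 3 without control replicate 3, and 1 without T315I replicate 2 or without T315I replicate 3, that 1 being Psc. The share of all genes called higher in T315I, 20.5% with all libraries, was 14% without control replicate 2, 22.4% without control replicate 3, and 13.6% and 13.5% without T315I replicates 2 and 3.

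**Figure D2:**
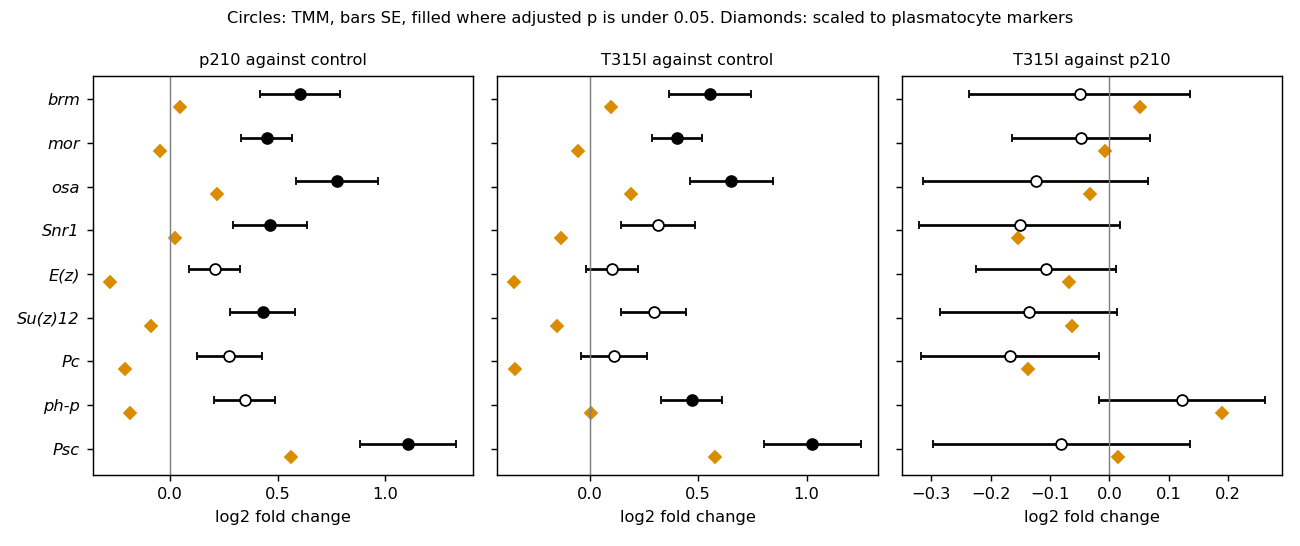
Log2 fold changes of the 9 tested members in each comparison: circles with SE bars use TMM scaling and are filled where the edgeR adjusted p is under 0.05, diamonds use scaling to plasmatocyte markers; the T315I against p210 panel has a narrower axis. All circles against the control are above 0, while the diamonds of mor, E(z), Su(z)12 and Pc are below 0 in both comparisons, that of ph-p in p210 and that of Snr1 in T315I; with Ppn left out of that scale (not drawn), the values against the control are below 0 for E(z) and Pc in T315I only.

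Setting T315I against p210 asks whether the drug-resistant kinase was accompanied by other levels of these genes than the p210 form. None of the 9 members was called in either direction by edgeR, and over all genes 0% were called higher and 0.01% lower. None had an unadjusted p under 0.05, and DESeq2 and limma-voom likewise called no member. All log2 values lay between -0.17 (Pc) and 0.12 (ph-p), each with edgeR adjusted p = 0.999. The intervals still allow sizeable differences, with 95% bounds of -0.57 and 0.40 for Psc, -0.55 and 0.30 for osa, and -0.31 and 0.21 for mor. Only Pc had groups that did not overlap, lower in T315I, which held for 16.7% of all genes. Thus ph-p, Snr1 and Su(z)12, each called in 1 of the comparisons with the control, were not shown to differ between the transgenes, with log2 values of 0.12, -0.15 and -0.14.

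Levels were compared between genes per kilobase of exon, a divisor that is put in doubt below. In the control the order was mor (28.8 ± 3.01 CPM per kb, SD, n = 3), osa (21.1 ± 0.909), Snr1 (20.7 ± 3.71), brm (16.1 ± 0.283), E(z) (13.96 ± 1.51), Su(z)12 (12.8 ± 1.64), Pc (5.95 ± 0.615), ph-p (4.61 ± 0.140) and Psc (4.46 ± 0.785). The ranges of osa and Snr1 overlapped, as did those of Snr1 and brm, of E(z) and Su(z)12, and of Psc with both Pc and ph-p. By this measure all 4 SWI/SNF genes were above the Polycomb genes, and the PRC1 genes were the lowest.

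That order was nearly kept in the transgene groups. The SWI/SNF genes stayed in ranks 1 to 4, with mor at 39.3 ± 2.03 CPM per kb in p210 and 38.01 ± 2.92 in T315I. In p210 the range of brm, 16.9 to 30.3, overlapped those of E(z), 15.3 to 17.2, and Su(z)12, 14.4 to 20.6. Psc moved from rank 9 to rank 7, at 9.66 ± 3.11 CPM per kb in p210 and 9.13 ± 0.154 in T315I, above Pc (7.21 ± 0.360 and 6.42 ± 0.340) and ph-p (5.87 ± 1.05 and 6.38 ± 0.300). In T315I the range of Psc, 9.01 to 9.30, did not overlap that of Pc, 6.14 to 6.80. In p210 the 2 ranges overlapped, at 6.82 to 12.99 for Psc and 6.82 to 7.52 for Pc. Among the 9763 tested genes with an exon length, Psc stood at percentile 25.6 for the control libraries, 48.1 for p210 and 47.2 for T315I.

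The sources used here do not state whether reads in introns were counted, and the order depends on it. As given for esc, 1203 of 1203 protein-coding genes with free exons inside the spans of other genes were at 0. Counting by exon alone would leave such genes countable, which they were not. Exon length is therefore a doubtful divisor, and the order, ranks and percentiles per exon length are uncertain. A second measure, added after the data were seen, was taken per kilobase of span free of other annotated features, mobile elements among them. By it Psc read 1.88, 4.08 and 3.85 CPM per kb in control, p210 and T315I. On that scale ph-p read 2.96, 3.77 and 4.10, and Pc 5.38, 6.53 and 5.81, so that Psc passed ph-p in p210 alone and stayed below Pc throughout. Only 22.9% of the Pc span counts as free, since a roo insertion is taken out, and for ph-p an FB insertion is taken out. The places of Pc and ph-p on this scale rest on that choice, and other treatments were not tested. On the same scale osa read 8.23 in the control, below E(z) at 10.6 and Su(z)12 at 10.1. In p210 it read 14.1, above Su(z)12 at 13.6 and E(z) at 12.2, and in T315I 12.95, above 12.4 and 11.4.

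**Figure D3:**
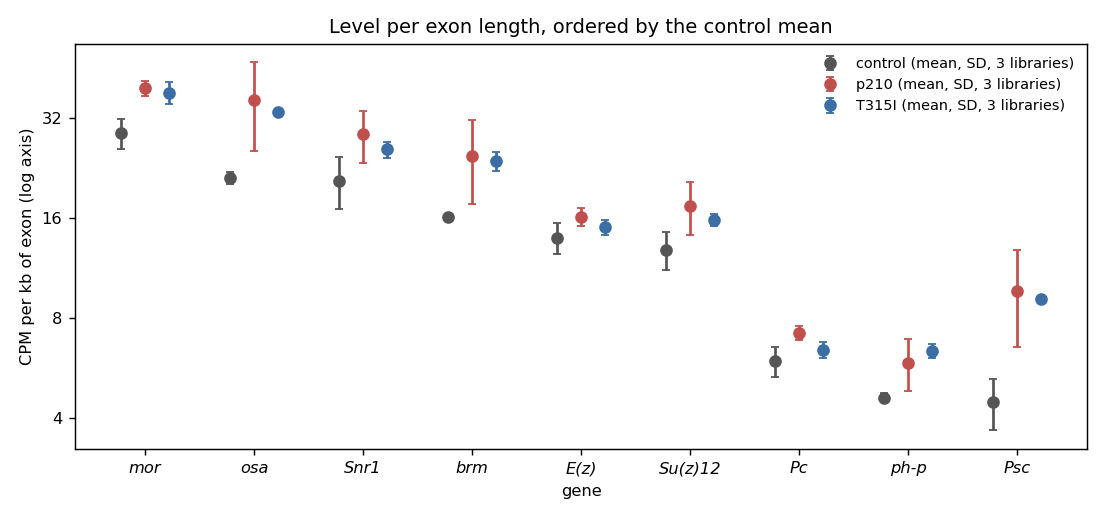
CPM per kilobase of exon (log axis) for each member by group, as mean and SD of 3 libraries, with genes ordered by their control mean. The means of SWI/SNF genes lie above those of Polycomb genes in every group, and Psc moves from 4.46 in the control to 9.66 in p210 and 9.13 in T315I, above Pc and ph-p.

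Because calls depended on the scaling, the ratio of 2 members of the same complex was taken within each library, where scaling cancels. These ratios were chosen after the data were seen and comprise 10 pairs in 3 comparisons. With 3 libraries against 3, the two-sided exact permutation test cannot give a p below 0.1, so no ratio can pass 0.05. A shifted ratio shows unequal change of its 2 genes and not which of them changed.

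Relative to Psc, both PRC1 partners were lower in the transgene groups. The count ratio of Pc to Psc was 0.596, 0.506 and 0.471 in the control, 0.416, 0.289 and 0.225 in p210 and 0.265, 0.291 and 0.265 in T315I. The control libraries were all above the others. The log2 ratio differed from the control by -0.80 in p210 and -0.93 in T315I, each with an exact permutation p of 0.1 (Benjamini-Hochberg adjusted over the 10 pairs, 0.5 and 0.25). The ratio of ph-p to Psc was 1.31, 1.22 and 0.914 in the control, 0.749, 0.732 and 0.564 in p210 and 0.729, 0.781 and 0.771 in T315I. Here too the groups did not overlap, with log2 differences of -0.75 and -0.58 and the same exact permutation p of 0.1.

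Other ratios moved less. E(z) to Su(z)12 was 0.710 ± 0.0484 in the control and 0.618 ± 0.0279 in T315I (SD, n = 3), without overlap (log2 difference -0.20, exact permutation p = 0.1), and 0.620 ± 0.122 in p210, which overlapped the control. Pc to ph-p was 0.455, 0.415 and 0.515 in the control, 0.556, 0.395 and 0.399 in p210 and 0.363, 0.373 and 0.343 in T315I, so that T315I lay below both. None of the 6 SWI/SNF pairs had groups without overlap, and their exact permutation p ran from 0.2 to 1. The ratio of osa to Snr1 was the most spread, at 6.11, 10.9 and 15 in the p210 libraries, against 7.20, 10.6 and 7.44 in the control.

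**Figure D4:**
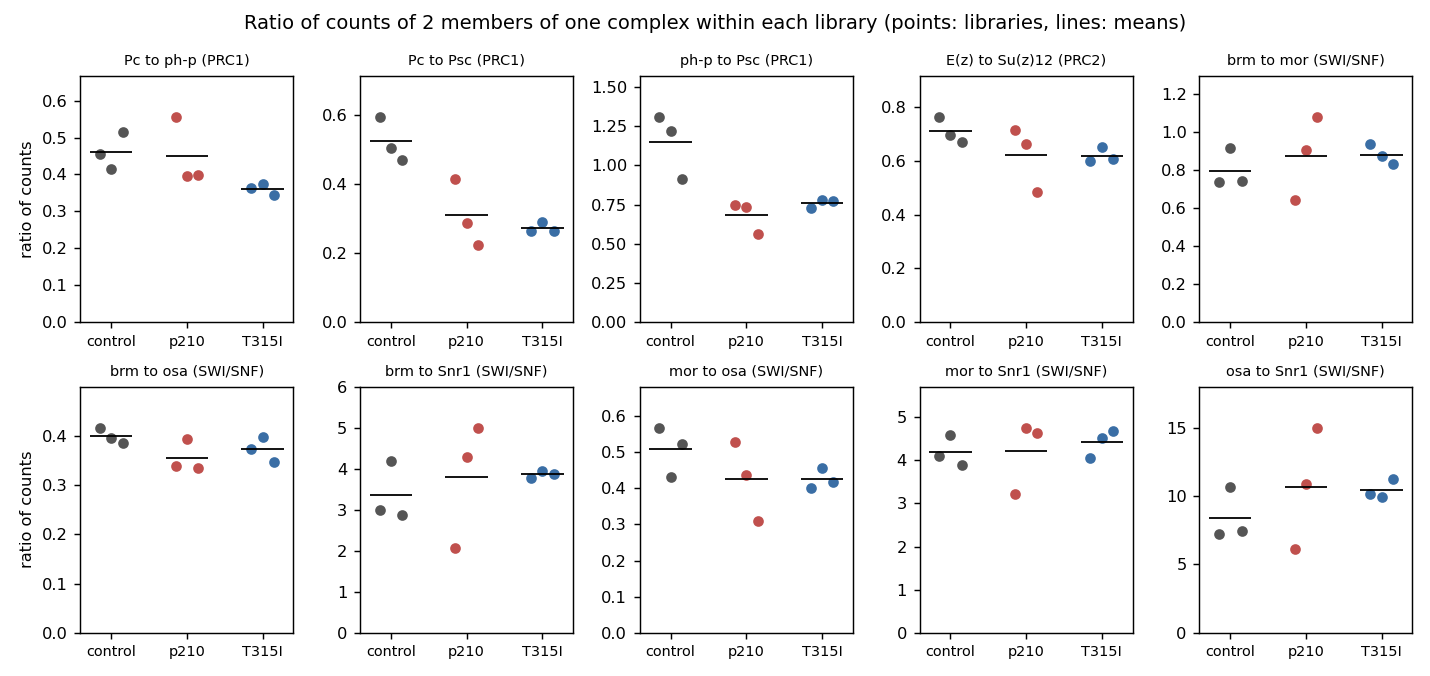
Ratio of the counts of 2 members of a complex in each library (points) with group means (lines), for 10 pairs; axes start at 0. The control points of Pc to Psc and ph-p to Psc lie above all p210 and T315I points, while the SWI/SNF pairs overlap between groups.

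The members did not share a single profile over the 9 libraries. Likeness was measured as the root mean square difference of log2(CPM + 1), each gene centred on its own mean, against the 9977 other tested genes. The closest pair of members was E(z) and Pc (0.0852), each ranked 55 and 34 in the other's list of nearest genes, followed by brm and osa (0.1095), at ranks 15 and 32. For the other members the nearest fellow member stood between rank 120 and rank 942. The single nearest genes were Atx2 for brm (0.0715), CTCF for mor (0.0250), hppy for osa (0.0676), Jra for Snr1 (0.0440), Prp4k for E(z) (0.0439), tws for Su(z)12 (0.0512), rump for Pc (0.0534), l(2)k05819 for ph-p (0.0622) and ex for Psc (0.0862).

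Further subunits of the same complexes were read from lists. As the share to set beside each count, 26.9% of all genes tested were called higher in p210 and 20.5% in T315I. The shares called lower were 30.3% and 28.7%. Of 8 other SWI/SNF subunits, 6 rose in p210 and 5 in T315I, none fell, and the medians were 0.51 and 0.42 on the log2 scale. The genes polybromo, with repeated bromodomains, and Bap170 encode subunits of the PBAP form of the complex and had log2 fold changes of 0.58 and 0.67 in p210 and 0.59 and 0.75 in T315I. The actin-related Bap55 stood at 0.56 and 0.51 and e(y)3, a PBAP-associated coactivator, at 0.53 and 0.49, with edgeR adjusted p of all 4 between 0.00362 and 0.0144. In levels, polybromo read 106, 88.1 and 116 CPM in the control against 144 to 166 in p210 and 153 to 157 in T315I, without overlap.

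Of 5 other PRC2 subunits and cofactors, 2 rose and 1 fell in each comparison. Caf1-55, a histone-binding subunit shared with other complexes, was at 0.76 in p210 and 0.68 in T315I, and Jarid2, a cofactor, at 0.63 and 0.54 (edgeR adjusted p from 0.00797 to 0.0353). The zinc finger gene jing fell, from 342, 429 and 206 CPM in the control to 87.4, 65.6 and 185 CPM in p210 and 119, 106 and 117 CPM in T315I, log2 changes of -1.53 and -1.52 (edgeR adjusted p = 0.00726 and 0.0109). Pcl, a subunit that anchors PRC2 to chromatin, was at 0.14 and 0.16 and did not pass (edgeR adjusted p = 0.487 and 0.437).

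Of 7 other PRC1 subunits and partners, 3 rose in each comparison and none fell. Paralogs of Psc and ph-p that lie next to them in the genome are among those that rose. Su(z)2, the neighbouring paralog of Psc, read 29.5, 30.2 and 34.1 CPM in the control, 46.9, 54.3 and 67.9 CPM in p210 and 50.7, 59.4 and 51.9 CPM in T315I. The groups did not overlap, and its log2 fold changes were 0.85 and 0.79 (edgeR adjusted p = 0.00206 and 0.00519). The near-identical neighbour of ph-p, ph-d, read 28.6, 24.8 and 28.2 CPM in the control, 37.4, 42.2 and 54.7 CPM in p210 and 36.8, 45.1 and 46.3 CPM in T315I. It rose by 0.72 and 0.65 (edgeR adjusted p = 0.00537 and 0.0116), but reads can be split between ph-p and ph-d, so either value alone is uncertain. Kdm2, a histone demethylase, rose by 0.60 and 0.52, and the ubiquitin ligase Sce, at 0.23 and 0.41, did not pass the test (edgeR adjusted p = 0.265 and 0.0738).

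Beyond these complexes, 8 of 13 other Polycomb group and recruiter genes rose in p210 and 4 in T315I, and 1 fell in each. That gene was corto, which encodes a chromodomain protein that binds both Polycomb and Trithorax proteins, at log2 -1.62 and -1.58. The glycosyltransferase gene sxc rose by 0.67 and 0.50, the recruiter gene lolal by 0.98 and 0.65, and phol, which encodes a DNA-binding recruiter, by 0.47 and 0.37. Of 16 tested Trithorax group genes 7 rose in p210 and 4 in T315I, the latter close to the 20.5% of all genes called higher there. Among those that rose were wds (1.23 and 1.03), a core subunit of histone methyltransferase complexes, the demethylase gene Kdm5 (0.70 and 0.62) and the Mediator gene kto (0.62 and 0.62). The bromodomain gene fs(1)h rose in p210 (0.96) and stood at 0.56 in T315I (edgeR adjusted p = 0.0631). Of 19 genes of other remodelling complexes 9 rose in p210 and 8 in T315I, such as Chrac-14 (1.17 and 1.04), Mi-2 (0.69 and 0.68) and dom (0.67 and 0.62).

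Over all 68 tested genes of these lists, 35 rose and 2 fell in p210, and 26 rose and 2 fell in T315I, with median log2 fold changes of 0.42 and 0.34. The members, at 0.45 and 0.40, were close to these medians. Of all genes tested, 26.9% were called higher and 30.3% lower in p210, and 20.5% and 28.7% in T315I. Under plasmatocyte scaling 5 and 4 of the 68 were called in either direction, and 10 and 7 with Ppn left out of the scale.

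Classic targets of Polycomb repression were mostly lower or too low to test. Of 8 Hox genes, which set segment identity, 3 passed the filter on low counts. abd-A read 39.3, 50.3 and 16.6 CPM in the control, 6.61, 2.55 and 4.83 CPM in p210 and 5.79, 2.74 and 3.85 CPM in T315I. Abd-B read 29.5, 11.1 and 2.56 CPM in the control, and 0.35 to 1.24 and 0.49 to 1.55 CPM in the transgene groups. Both fell, by log2 changes of -2.91 and -3.10 for abd-A and -3.89 and -3.97 for Abd-B (edgeR adjusted p from 0.00169 to 0.00767), and control levels varied several-fold. The remaining gene tested, Ubx, named after its values were seen, read 203, 85.1 and 124 CPM in the control, 148, 188 and 133 in p210 and 144, 153 and 169.7 in T315I, overlapping throughout, and was not called.

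Of 20 other target genes 10 passed the filter, of which 7 fell and 1 rose in each comparison. Of all genes tested, 30.3% in p210 and 28.7% in T315I were called lower. Among the 7, hh and inv, named after their values were seen, passed the filter only through the control libraries. There hh read 1.61 to 3.50 CPM, against 0.065 to 0.42 in the transgene libraries. For inv the levels were 1.61 to 5.16 CPM and 0.17 to 1.17 CPM. Such genes could only be called lower. The developmental transcription factor genes ap, tsh and cad fell by log2 changes of -2.69, -2.99 and -2.61 in p210 and -2.32, -2.77 and -2.56 in T315I. The gene that rose, upd3, a cytokine gene of the JAK/STAT pathway named after its values were seen, was at 1.88 and 1.70. Fat body and muscle markers fell in the same libraries, as given above, and cuticle markers summed to between 63.1 and 218 CPM in the control, 7.65 and 9.78 in p210 and 12.5 and 15.6 in T315I. The part of RNA from other tissues in the lower target genes was not tested.

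**Figure D5:**
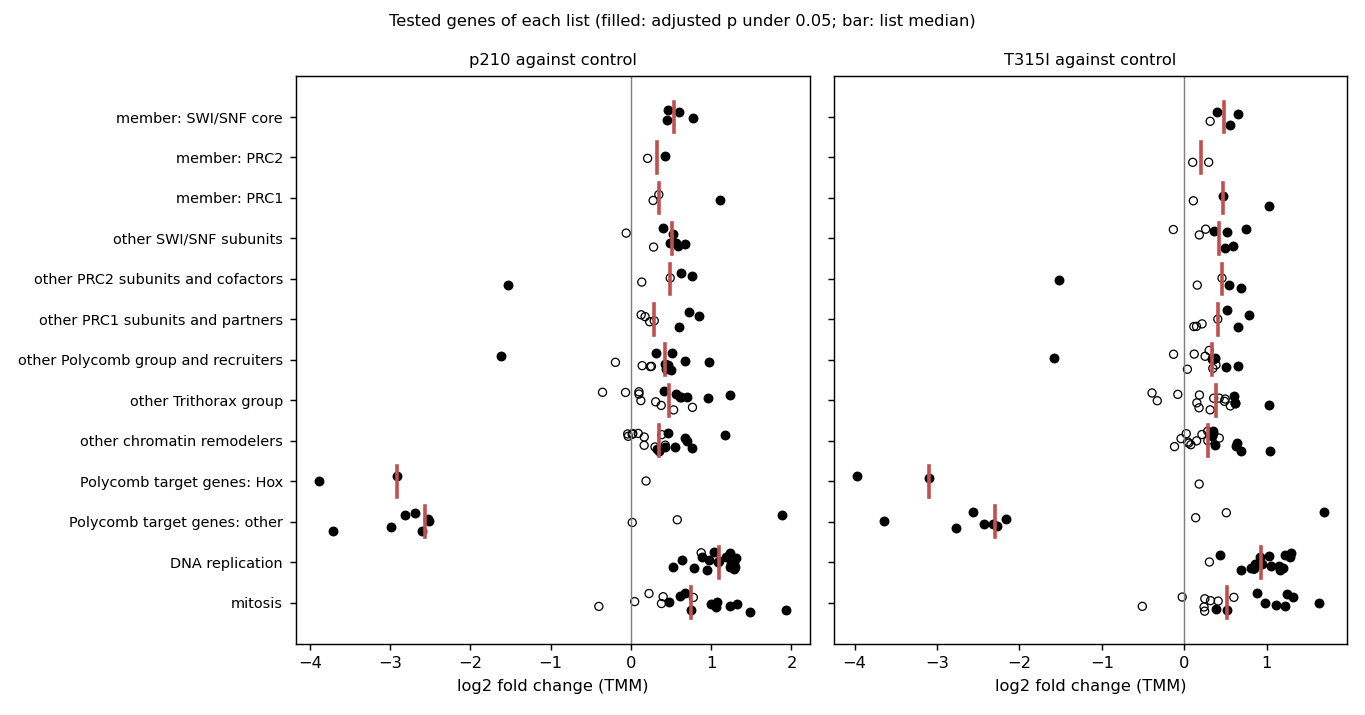
Log2 fold change (TMM) against the control of every tested gene in each list, filled where the edgeR adjusted p is under 0.05, with the list median as a bar; left, p210, right, T315I. Chromatin lists centre above 0, with corto and jing as the 2 genes that fell, while the Hox list has medians of -2.91 and -3.10; under plasmatocyte scaling most chromatin calls are lost and the median of the 9 members falls below 0, while with Ppn left out of that scale it is 0.29 and 0.25.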

How the data were processed

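The authors deposited raw counts per gene for 9 hemocyte libraries, without normalization. Per the labels' protocols, libraries were stranded total RNA after ribosomal depletion. The tools were featureCounts 2.0.1 (Subread), HISAT2 2.1.0 and FastQC 0.11.8, with build dm6, per the submitters' processing notes. The sources used here give neither the strand setting nor the annotation release. Each column names its group and replicate, and 0 columns stayed unused. Symbols of 17554 of 17874 genes matched the BDGP6.54 annotation (release 115), which gave coordinates, lengths and overlaps. If strand was not used in counting, reads of antisense neighbours cannot be told apart.

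The main test was edgeR 4.0.16 in R 4.3.3 (filterByExpr, TMM, robust quasi-likelihood fit over all 9 libraries, 1 mean per group, two-sided). Limma 3.58.1 and DESeq2 1.42.0 served as alternatives. A call is a Benjamini-Hochberg adjusted p under 0.05 over 9978 genes. CPM use library totals times TMM factors. SE is the log2 fold change over the root of F. No 2 replicates were identical or within counting noise of each other, with 13.6 to 91.7 as the chi-square divided by its degrees of freedom. The fit was tested on simulated data, where it called 42% of 2-fold changes in p210, 39% in T315I and 37% in T315I against p210. Of 4-fold changes it called 80%, 70% and 75%. Changes smaller than 2-fold were not simulated, and a gene that is not called is not read as unchanged.

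Members and lists were chosen with earlier results of these data known. Named were all members, ph-d, Su(z)2, escl, Caf1-55, Sce, Pcl and Abl, up to 3 called genes per other list and comparison by adjusted p, and for each member its nearest gene and nearest fellow member. Alternatives covered scaling, filters, tests, samples, depth and single libraries.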

Additional observations from a re-analysis of the deposited data

How the results depend on the processing

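The members called higher in p210 numbered 6, against 2 with upper-quartile scaling, 0 with scaling to plasmatocyte markers, 2 with a filter of 5 CPM in 3 libraries, 2 in a fit of only the 2 groups compared, and 4 to 6 with single libraries left out. The share of all genes called higher moved too, from 26.9% to 18.7%, 5.25%, 20.8% and 16.6% under the first 4 of these settings. In T315I they numbered 5, against 2, 0 and 1 under the first 3 of these settings, 3 with libraries thinned to the smallest total, and 1 to 5 with single libraries left out, while the share of all genes went from 20.5% to 16.2%, 4.15%, 18.5% and 19.5%. Plasmatocyte scaling with Ppn left out, added after seeing the data, called 2 members in p210 (11.4% of all genes higher, median of the members 0.29) and 1 in T315I (8.46%, median 0.25). RLE scaling, no filter, DESeq2, limma-voom and leaving out genes of other tissues gave counts within 1.5 times of these, although RLE scaling ended the calls of Snr1 and Su(z)12 in p210 (edgeR adjusted p = 0.0513 and 0.0518) and of brm in T315I (0.0511). No member was called lower in any setting, and none in T315I against p210. The median of the members in p210 was 0.30 (upper quartile), -0.049 (plasmatocyte scaling), 0.26 (5 CPM filter) and 0.35 to 0.55 (single libraries left out). In T315I it was -0.056 (plasmatocyte scaling), 0.27 (5 CPM filter) and 0.32 to 0.51 (single libraries left out), and in T315I against p210 it ran from -0.16 to 0.031, positive without p210 replicate 3. The other chromatin genes called numbered 37 in p210, against 24 (upper quartile), 5 (plasmatocyte scaling), 10 (the same, Ppn left out), 18 (5 CPM filter) and 18 (2 groups), and 28 in T315I, against 4 (plasmatocyte scaling), 7 (the same, Ppn left out), 16 (5 CPM filter), 18 without control replicate 2, 16 without T315I replicate 2 and 18 without T315I replicate 3.

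Directions against the control reversed under plasmatocyte scaling for mor (-0.049), E(z) (-0.28), Su(z)12 (-0.090), Pc (-0.21) and ph-p (-0.19) in p210, and for mor (-0.056), Snr1 (-0.13), E(z) (-0.35), Su(z)12 (-0.15) and Pc (-0.35) in T315I. With Ppn left out of that scale the reversals were E(z) (-0.040) and Pc (-0.038) in T315I and brm (0.012) in T315I against p210. In T315I they also reversed for E(z) (-0.033) and Pc (-0.026) with the 5 CPM filter and for Pc (-0.037) after thinning. In T315I against p210, brm became 0.052 and Psc 0.014 under plasmatocyte scaling. There, mor became 0.0029 (upper quartile), 0.0064 (5 CPM filter), 0.028 (thinned). With single libraries left out, brm ran from -0.26 to 0.15, mor from -0.097 to 0.0032, osa from -0.31 to 0.14, Su(z)12 from -0.26 to 0.031, Snr1 from -0.21 to 0.0039, ph-p from -0.018 to 0.26 and Psc from -0.28 to 0.21. The sign turned without p210 replicate 3 for brm, osa, Su(z)12 and Psc, without p210 replicate 2 for brm (0.0011) and without p210 replicate 1 for Snr1 and ph-p. Beyond leaving out Ppn, the cause was not tested. Of 189 member values per comparison under the alternatives, 148 (p210), 147 (T315I) and 175 (T315I against p210) kept their direction and side of the threshold.

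The main fit did not pair libraries by replicate number. Deviations of same-numbered libraries correlated between -0.38 and 0.19. Differently numbered libraries were not compared, so these values cannot decide whether the numbers pair the libraries. With a replicate block, 5 members were called in p210, Snr1 being lost (0.46, edgeR adjusted p = 0.0541), and 5 in T315I. Depth limits the lowest genes, and 3 libraries per group limit the exact tests of ratios.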

Other observations

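Genes of DNA replication, read beside the chromatin genes, were higher in both transgene groups. Of 18 tested, 17 rose in p210 and 16 in T315I and none fell, with median log2 fold changes of 1.09 and 0.94. Of all genes tested, 26.9% and 20.5% were called higher in these comparisons. PolA1, the catalytic subunit of the polymerase that primes replication, rose by 1.28 and 1.22, and Mcm3, of the replicative helicase, by 1.30 and 1.15. The chromatin assembly subunit gene Caf1-180 rose by 1.25 and 1.19, and the licensing gene dup by 0.89 and 0.81 (edgeR adjusted p of these 4 from 0.0013 to 0.00442). Of 17 mitosis genes 11 rose in p210 and 9 in T315I and none fell, with medians of 0.74 and 0.52. The kinase gene aurB rose by 1.48 and 1.32, and the condensin genes SMC2 and glu by 1.00 and 0.89 and by 1.23 and 1.24.

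Caf1-55, described above as a subunit of PRC2, is also part of the chromatin assembly complex together with Caf1-180. Summed levels of the replication genes were 483 to 794 CPM in the control, 1199.7 to 1349.8 in p210 and 1121 to 1205 in T315I, without overlap with the control, while the members summed to 597 to 653, 763 to 1143 and 877 to 923 CPM. Relations between the lists were not tested.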
